A study of Mus musculus with 26 samples.

Results

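Fatty acid oxidation was followed here through 8 genes: the nuclear receptor Ppara, the carnitine palmitoyltransferases Cpt1a and Cpt2, the mitochondrial acyl-CoA dehydrogenases Acadm, Acadl and Acadvl, the trifunctional protein subunit Hadha, and the peroxisomal enzyme Ehhadh. They were chosen by symbol, and all 8 were found among the 55401 genes of the count table and passed the filter on low counts. The members hold no ketogenic enzyme, so ketogenesis was read from a list of further genes. Liver RNA came from male C57BL/6 mice that began a high-fat diet at 4 weeks of age and stayed on it for 18 weeks; the series design adds high cholesterol to the diet. The untreated HFD group (9 libraries) had the diet alone, and the UCMSC-Exos group (8 libraries) was also given UCMSC-derived exosomes by tail vein, 1 injection every 72 hours for 8 weeks. Exosomes are small membrane vesicles that cells release. The labels give the untreated mice no injection, so exosomes and the injections themselves cannot be told apart. A further group, LSCR (9 samples), was not analysed here.

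Fatty acids are burned in liver cells in a fixed order. They are joined to coenzyme A, carried into mitochondria as carnitine esters by CPT1A and CPT2, and shortened in rounds by acyl-CoA dehydrogenases, hydratases, hydroxyacyl-CoA dehydrogenases and thiolases. Peroxisomes shorten very long and dicarboxylic chains with a separate set of enzymes, and in fasting the liver turns the acetyl-CoA into ketone bodies. PPAR-alpha, the product of Ppara, binds fatty acids and switches on many of these genes together with a retinoid X receptor. Malonyl-CoA, an intermediate of fatty acid synthesis, blocks CPT1A.

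Libraries held 32941467 to 36065074 counted reads, and the 8 members took 0.216% to 0.288% of them. Hepatocyte markers were high throughout (summed level of 8 markers 46300 to 88310 CPM, the count scaled to library size, in untreated HFD and 53810 to 94460 CPM in UCMSC-Exos). Of these 8 markers 7 were higher in UCMSC-Exos, where the sum was 73750 CPM or more in every library but UCMSC-Exos 9. Of 6 stellate cell markers 2 were lower (summed level 643 to 1889 CPM in untreated HFD and 375 to 1640 CPM in UCMSC-Exos), and of 6 B and plasma cell markers 3 were higher (9.05 to 17.4 CPM and 55.2 to 136 CPM). Of 3 tested erythroid markers 2 were higher (55.6 to 106 CPM and 92.8 to 225 CPM). None of 7 cholangiocyte markers passed, with all 7 fold changes below 0 (median −0.996; 121 to 530 CPM and 49.4 to 595 CPM). Over all genes tested 9.73% were higher and 10.4% lower by the same test. The part of these markers in the results below was not tested. Fewer cells of a type and less RNA per cell cannot be told apart in such tissue samples. In 3 libraries the content stood apart. Untreated HFD 3 held 9552 CPM of 5 pancreatic acinar markers, against 8.22 to 17.9 CPM in every other library, and 0.297% of its reads were mitochondrially encoded. Untreated HFD 9 held 7063 CPM of 5 striated muscle markers, against at most 1.29 CPM elsewhere, and 6.55% of its reads were mitochondrially encoded. In the other 15 libraries that share was 3.13% to 4.58%. UCMSC-Exos 9 held 595 CPM of cholangiocyte markers (49.4 to 130 CPM in the other treated libraries), 1640 CPM of stellate cell markers (375 to 572 CPM) and 53810 CPM of hepatocyte markers. It lay among the untreated libraries on the first principal component, so a fit without it leaves out a treated library because of its expression. Member results that rest on these 3 libraries are given with and without them.

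The scaling between libraries bears on small differences such as those below. TMM scaling factors were 0.868 to 0.945 in UCMSC-Exos other than UCMSC-Exos 9 (1.18) and 0.973 to 1.12 in untreated HFD. With library totals only, a setting added after these factors were seen, the median log2 fold change of all genes was −0.19, against −0.02 with TMM, and the member median was −0.08 against 0.10. The log2 fold changes of Ppara and Cpt1a, both 0.25 with TMM, were 0.075 and 0.079 with library totals only. With surrogate variables they were 0.10 and 0.080. Neither passed in these fits. The member median was above that of all genes by 0.11 with library totals only and by 0.12 with TMM. Among all genes called, 48.3% were higher with TMM and 19.9% with library totals only.

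Promoter sequences show how the members differ in the half-site AGGTCA, the 6-letter element that PPAR-alpha and its partner read as a direct repeat. All 8 members matched a RefSeq promoter on GRCm38.p6, and the 250 bases before each start were searched on both strands. The half-site was in 3 of 8, printed because they include the gene with the largest member fold change (Cpt1a, log2 0.25). Ppara, also at 0.25, had none, and Acadm, at 0.02, had 1. Letters of the half-site are in capitals, as TGACCT where the match is on the opposite strand. Each sequence reads 5′ to 3′ along the gene's own strand.
Cpt1a (chr19:3323192-3323227, plus strand): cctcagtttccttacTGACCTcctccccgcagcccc
Acadm (chr3:153944872-153944893, minus strand): gTGACCTtcgggctccggtgac
Acadvl (chr11:70015495-70015530, minus strand): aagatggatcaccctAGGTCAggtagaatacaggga
The matches begin 94, 249 and 87 bases before the RefSeq start. For Cpt1a that start lies inside the counted gene, which begins at 3322334. The same half-site was in 14% of all 32851 promoters searched this way. The full repeat AGGTCANAGGTCA was in none of the 8, and in 0.0335% of all promoters. The looser AGGNCANAGGNCA was also in none, and in 0.338% of all. A match is a string of letters, not a measured binding site.

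The 8 members differed little between the groups. None passed an adjusted p of 0.05 with edgeR's quasi-likelihood test (Benjamini-Hochberg adjustment over 16238 genes), where 20.2% of all genes tested passed. At an unadjusted p under 0.05 there was 1 member, Cpt1a, beside 35.8% of all genes. DESeq2 called 1 (Cpt1a), where it called 25% of all genes. With limma voom and quality weights 5 members were higher (Ppara, Cpt1a, Cpt2, Acadm and Acadvl). There 47.5% of all genes were called in either direction, and 46.4% of the called genes were higher. In the edgeR fit the members' median log2 fold change was 0.10, with 6 of 8 values above 0, beside a median of −0.02 over all genes. The 95% intervals reached at most 1.41-fold higher (Ppara) and at lowest 0.745-fold (Ehhadh), so larger average changes lay outside them. The groups overlapped for every member, while 1.3% of all genes had groups that did not overlap. UCMSC-Exos 7 and 8 were above the untreated median for 8 of 8 members and UCMSC-Exos 1, 2 and 3 for 7. UCMSC-Exos 5 and 6 were mixed, above it for 5 and 4 members, and UCMSC-Exos 9 was above it for 1.

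**Figure D1:**
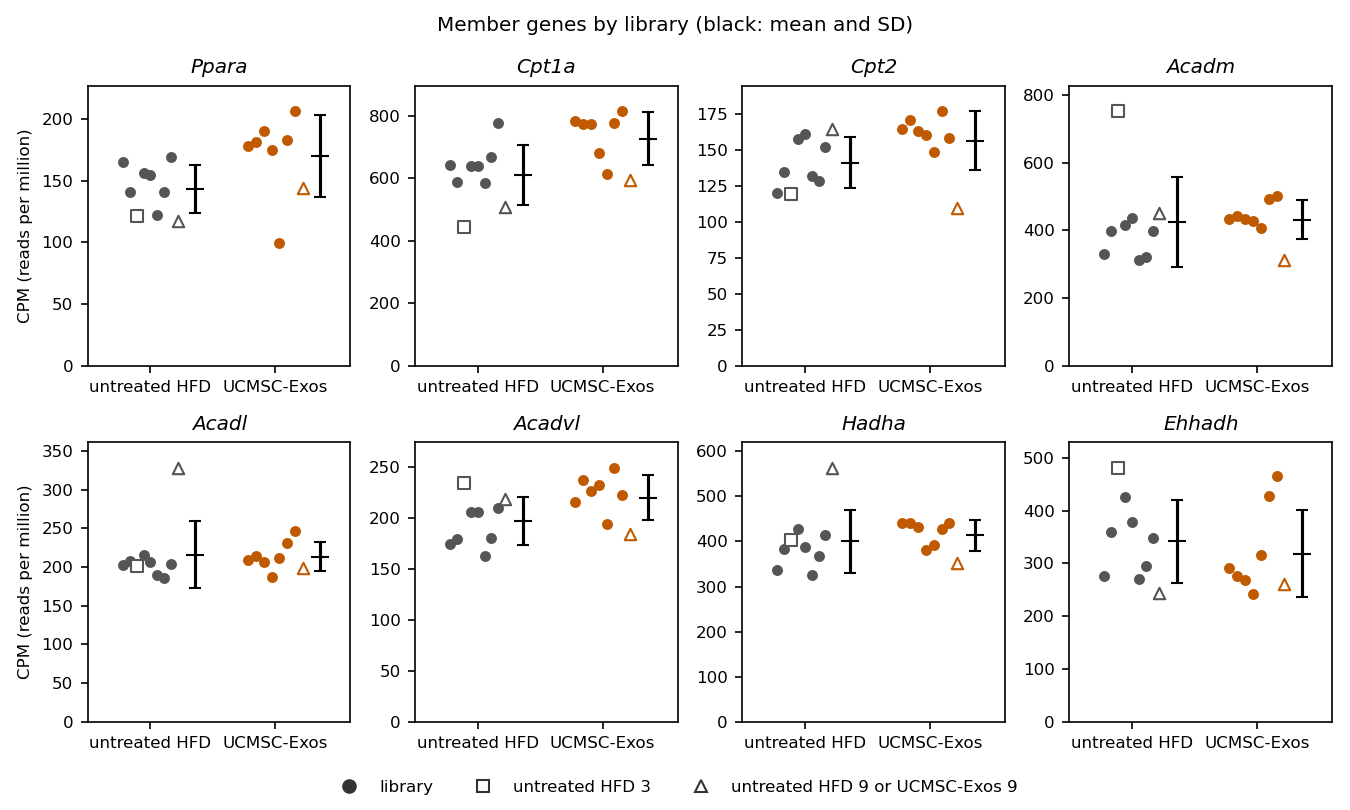
Level of each member gene in CPM (TMM-scaled) in each library, by group; points are libraries, open squares and triangles mark the 3 libraries that stood apart, and black bars are the mean and SD over 9 and 8 libraries. The groups overlap in every panel, and single open symbols hold the extremes for Acadm, Acadl, Hadha and Cpt2.

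Ppara, the receptor at the head of the programme (chromosome 15, 85734983 to 85802819 on mm10), ran from 117 through a median of 141 to 169 CPM in untreated HFD, and from 99.4 through 180 to 206 CPM in UCMSC-Exos. Of the treated libraries 6 lay above the highest untreated one, and UCMSC-Exos 6 lay below the lowest. The means were 143 CPM ± 19.6 (SD, n = 9) and 170 CPM ± 33.4 (SD, n = 8). Between the groups this came to a log2 fold change of 0.25 ± 0.12 (SE; 95% interval −0.0025 to 0.50; edgeR adjusted p = 0.144). The call turned on 1 library: without UCMSC-Exos 6, Ppara passed at 0.33 (edgeR adjusted p = 0.0205), where 17.9% of all genes passed. Where Ppara was lowest, in UCMSC-Exos 6, Cpt1a stood at 612 CPM and Ehhadh at 315 CPM, both inside the untreated range. Among treated libraries only UCMSC-Exos 9 was lower for Cpt1a, at 594 CPM. Between libraries, log2 CPM of Ppara and Cpt1a had a Pearson r of 0.83 within each group. For Ppara and Ehhadh r was 0.18 in untreated HFD and 0.23 in UCMSC-Exos, and for Ppara and Cpt2 it was 0.14 and 0.46. With Acadm, Acadl, Acadvl and Hadha, Ppara had r of −0.35, −0.37, −0.12 and −0.28 in untreated HFD. In UCMSC-Exos these were 0.53, 0.30, 0.71 and 0.57. Over all 28 member pairs the median r in untreated HFD was 0.158, and 0.681 without untreated HFD 3 and 9. In UCMSC-Exos it was 0.645, and 0.604 without UCMSC-Exos 9.

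The carnitine shuttle members came next. Cpt1a makes long-chain acylcarnitines at the outer mitochondrial membrane and is the step that malonyl-CoA blocks. It ran from 444 through 639 to 775 CPM in untreated HFD and from 594 through 772 to 813 CPM in UCMSC-Exos. Of the treated libraries 3 were above every untreated one, and the lowest value was that of untreated HFD 3. Its log2 fold change was 0.25 ± 0.10 (SE; 95% interval 0.03 to 0.47; edgeR adjusted p = 0.0904). Cpt1a passed without untreated HFD 8 (0.30, edgeR adjusted p = 0.0436) or without UCMSC-Exos 9 (0.29, 0.0313), where 20.9% and 35.7% of all genes passed.

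Cpt2, which turns acylcarnitines back into acyl-CoA inside the mitochondrion, ran from 119 through 135 to 165 CPM in untreated HFD and from 110 through 162 to 176 CPM in UCMSC-Exos. The lowest value of all was that of UCMSC-Exos 9, and the other 7 treated libraries were all above the untreated median. This gave a log2 fold change of 0.15 ± 0.09 (SE; 95% interval −0.04 to 0.34; edgeR adjusted p = 0.256). Without UCMSC-Exos 9 Cpt2 passed at 0.21 (edgeR adjusted p = 0.0397), where 35.7% of all genes passed. Of the other forms of the first enzyme, Cpt1b, the muscle form, was at 0.377 CPM in untreated HFD with its highest value, 1.14 CPM, in untreated HFD 9.

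The acyl-CoA dehydrogenases take the first step of each round, on chains of medium (Acadm), long (Acadl) and very long (Acadvl) length. Acadm ran from 314 through 399 to 752 CPM in untreated HFD and from 313 through 434 to 501 CPM in UCMSC-Exos. The 752 CPM belonged to untreated HFD 3, the library with acinar transcripts, and the other untreated libraries reached 452 CPM. Acadm had a log2 fold change of 0.02 ± 0.15 (SE; 95% interval −0.29 to 0.33; edgeR adjusted p = 0.929) and 0.17 ± 0.10 without untreated HFD 3 (edgeR adjusted p = 0.225).

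Acadl ran from 186 through 204 to 328 CPM in untreated HFD and from 187 through 210 to 247 CPM in UCMSC-Exos. The 328 CPM belonged to untreated HFD 9, the library with muscle transcripts, and the other untreated libraries ended at 216 CPM. For Acadl the log2 fold change was −0.02 ± 0.10 (SE; 95% interval −0.23 to 0.19; edgeR adjusted p = 0.919) and 0.08 ± 0.06 without untreated HFD 9 (edgeR adjusted p = 0.398).

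Acadvl ran from 162 through 206 to 234 CPM in untreated HFD and from 184 through 224 to 249 CPM in UCMSC-Exos. Untreated HFD 3 held the highest untreated value and UCMSC-Exos 9 the lowest treated one. Acadvl differed by a log2 fold change of 0.16 ± 0.08 (SE; 95% interval −0.01 to 0.33; edgeR adjusted p = 0.167). Acadvl was the only member to pass without untreated HFD 3 and 9 (0.22, edgeR adjusted p = 0.0478), where 20.6% of all genes passed.

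Hadha, the subunit of the trifunctional protein that hydrates and dehydrogenates long chains, ran from 324 through 387 to 563 CPM in untreated HFD and from 353 through 430 to 441 CPM in UCMSC-Exos. Its highest value, like that of Acadl, was in untreated HFD 9. Hadha gave a log2 fold change of 0.05 ± 0.10 (SE; 95% interval −0.16 to 0.25; edgeR adjusted p = 0.766), and 0.12 ± 0.08 without untreated HFD 9 (edgeR adjusted p = 0.280). Ehhadh joins the same pair of activities in peroxisomes. It ran from 245 through 347 to 481 CPM in untreated HFD and from 243 through 283 to 465 CPM in UCMSC-Exos. In Ehhadh 6 of 8 treated libraries were below the untreated median, and UCMSC-Exos 7 and 8 were well above it, at 427 and 465 CPM. In the fit its log2 fold change was −0.10 ± 0.15 (SE; 95% interval −0.43 to 0.22; edgeR adjusted p = 0.665). Ehhadh had the largest spread of the members within the treated group, with a coefficient of variation of 25.9%, against 8.13% for Hadha.

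**Figure D2:**
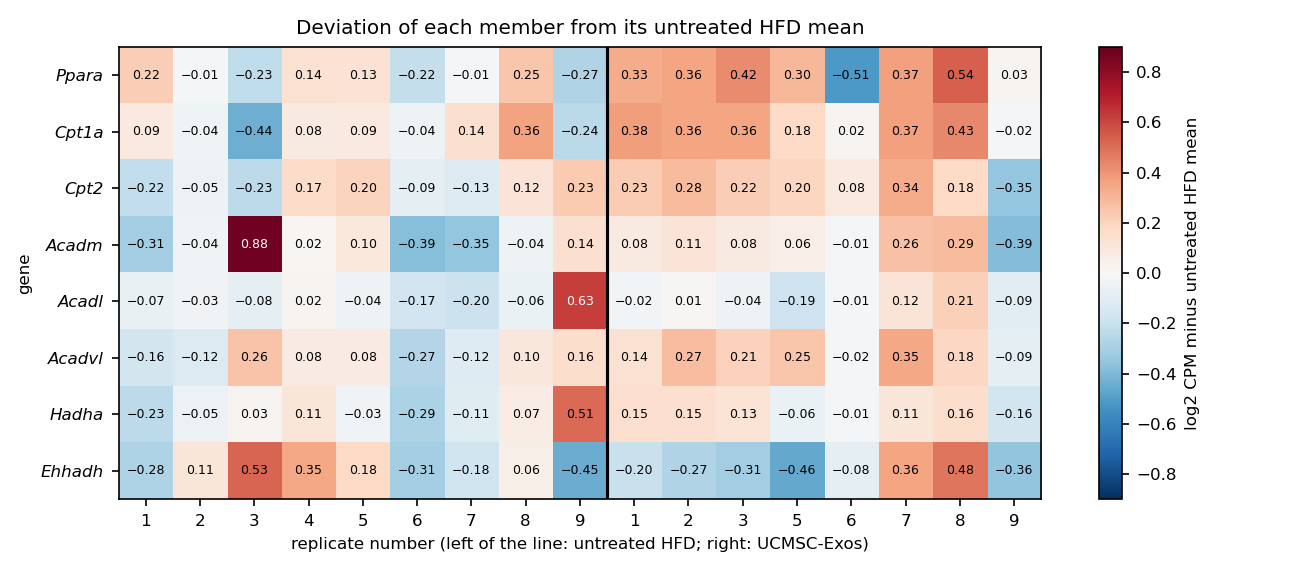
Each cell is a member's log2 CPM in 1 library minus its mean over the 9 untreated HFD libraries; columns are libraries by replicate number, with untreated HFD left of the line and UCMSC-Exos right. The deepest cells are Acadm and Ehhadh in untreated HFD 3 (0.88 and 0.53), Acadl and Hadha in untreated HFD 9 (0.63 and 0.51) and Ppara in UCMSC-Exos 6 (−0.51) and 8 (0.54).

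Leaving out all 3 libraries that stood apart gave 7 against 7. In that fit 4 members passed, all higher in UCMSC-Exos, at log2 fold changes of 0.26 (Acadm), 0.25 (Acadvl), 0.21 (Cpt2) and 0.20 (Cpt1a), with edgeR adjusted p of 0.0170, 0.00644, 0.0175 and 0.0446. Of all genes 41.9% passed there in either direction, and 46.9% of those that passed were higher. Ppara at 0.21, Hadha at 0.16, Acadl at 0.09 and Ehhadh at −0.04 did not pass (edgeR adjusted p = 0.189, 0.0634, 0.242 and 0.849). Every member's groups still overlapped.

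**Figure D3:**
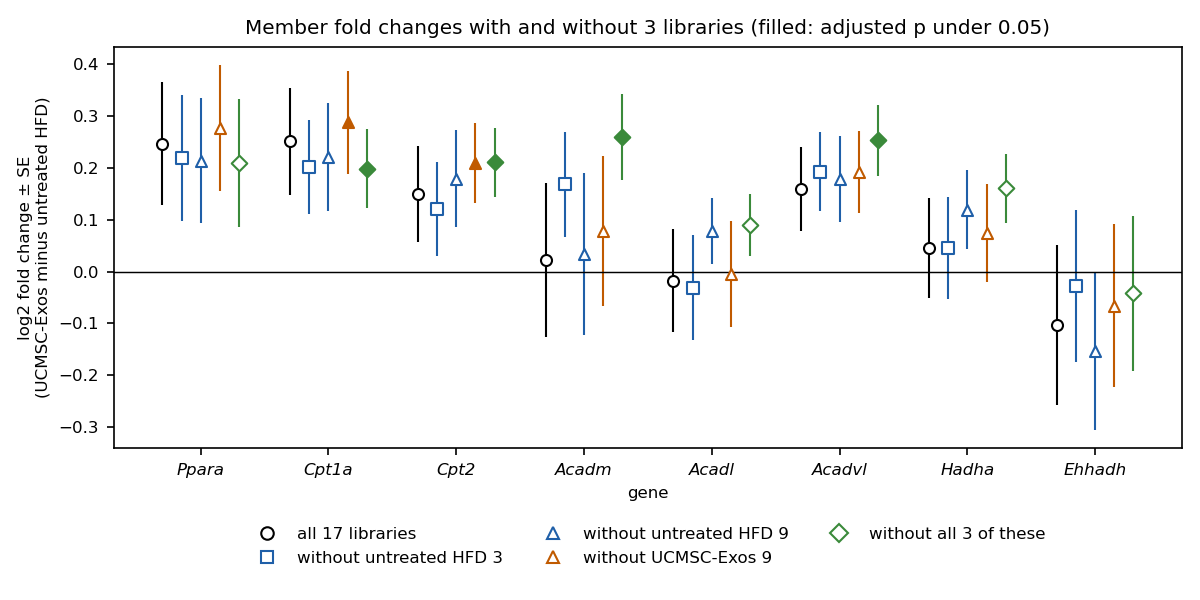
Log2 fold change of each member, UCMSC-Exos minus untreated HFD, with its SE, from edgeR fits on all 17 libraries and without 1 or all of the 3 libraries that stood apart; filled symbols passed an adjusted p of 0.05. Acadm moves from 0.02 to 0.17 without untreated HFD 3 and Acadl from −0.02 to 0.08 without untreated HFD 9, while Ehhadh is below 0 in each of these 5 fits.

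Per kilobase of exon, the members' levels in untreated HFD spanned a narrow range. Ehhadh, Acadm and Acadl were highest, at 115 ± 26.3, 109 ± 34.0 and 108 ± 21.5 RPKM (CPM divided by exon length in kilobases; SD, n = 9), and did not differ from each other beyond their spread. Cpt1a at 79.7 ± 12.4 RPKM and Acadvl at 73.3 ± 8.76 RPKM formed the next pair, again within their spread. Cpt2 at 58.9 RPKM, Hadha at 45.9 RPKM and Ppara at 37.3 RPKM followed. Each of these 3 was below its neighbour by more than the larger SD of the pair, and Acadl was above Cpt1a in 9 of 9 libraries.

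Around the members, some other genes of the pathway passed, at a share of the list (25.7%) not far above that of all genes (20.2%). A list of 77 genes of oxidation, ketogenesis and their control, members included, had 74 tested; 13 were higher and 6 lower in UCMSC-Exos (17.6% and 8.11%, beside 9.73% and 10.4% of all genes), none of them a member. The list's median log2 fold change was 0.11. Without the 3 libraries that stood apart 34 were higher and 9 lower, where 41.9% of all genes were called. With library totals only, 8 were higher and 11 lower, where 22.8% of all genes were called. Leaving out 1 library moved the counts most for UCMSC-Exos 9 (24 higher) and UCMSC-Exos 3 (3 lower). There 35.7% and 12.2% of all genes were called.

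In fatty acid activation and carnitine transfer, 2 of 12 tested genes rose and 2 fell (33.3% called, beside 20.2% of all genes). Acsl1, the main liver long-chain acyl-CoA synthetase, ran from 359 through 494 to 819 CPM in untreated HFD and from 577 through 993 to 1323 CPM in UCMSC-Exos, a rise of 0.90 ± 0.18 (log2; edgeR adjusted p = 0.00238). All 8 treated values exceeded the untreated median. Crot, the peroxisomal carnitine octanoyltransferase, rose by 0.34 (edgeR adjusted p = 0.0230). Acsl5 and the carnitine acetyltransferase Crat fell, at −0.24 and −0.66 (edgeR adjusted p = 0.0346 and 0.0271). Crat stood at 201 CPM in untreated HFD 9 and at 98.1 CPM or less in the other untreated libraries; without that library its value was −0.44, and the call held. Acsl5 kept its call in 8 of 17 fits that left out 1 library. Crot was at 0.39 without UCMSC-Exos 9 and lost its call with library totals only (0.16, edgeR adjusted p = 0.114).

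Of 11 tested acyl-CoA dehydrogenase and electron transfer genes 1 rose and none fell (9.09% called, beside 20.2% of all genes). Acadsb, which acts on short branched chains, rose by 0.64 ± 0.15 (edgeR adjusted p = 0.00656). Without UCMSC-Exos 9 Acadsb was at 0.74, and with surrogate variables it was at 0.25 and did not pass (edgeR adjusted p = 0.0908). Of 8 genes of the later mitochondrial steps 2 rose and none fell (25% called, beside 20.2% of all genes). The thiolase Acaa2 went from 711 ± 60.8 (SD, n = 9) to 922 ± 107 CPM (SD, n = 8) and rose by 0.37 ± 0.09 (edgeR adjusted p = 0.00674), and the enoyl-CoA isomerase Eci2 rose by 0.36 ± 0.07 (edgeR adjusted p = 0.00298). Acaa2 was at 0.43 without UCMSC-Exos 9 and at 0.20 with library totals only, and passed in both. Eci2 did not pass with library totals only (0.19, edgeR adjusted p = 0.0793). Hadhb, the partner subunit of Hadha, did not pass (−0.11 ± 0.14, edgeR adjusted p = 0.571).

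Of 18 peroxisomal genes 3 rose and 1 fell (22.2% called, beside 20.2% of all genes). Pecr, a trans-2-enoyl-CoA reductase, and Phyh, the hydroxylase of phytanoyl-CoA, rose by 0.74 ± 0.12 and 0.60 ± 0.13 (edgeR adjusted p = 0.000630 and 0.00376). Abcd3, a peroxisomal fatty acid transporter, rose by 0.31 (edgeR adjusted p = 0.0350) and kept its call in 7 of 17 fits that left out 1 library; with library totals only it was at 0.13 (edgeR adjusted p = 0.170). Abcd2, a related transporter of very long chains, fell by 0.58 ± 0.11 (log2; edgeR adjusted p = 0.00176). It was the only gene of the 74 tested in the pathway list whose groups did not overlap, beside 1.3% of all genes.

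For ketogenesis, 1 of 5 genes rose and 1 fell (40% called, beside 20.2% of all genes). Bdh1, which reduces acetoacetate to beta-hydroxybutyrate, ran from 248 through 305 to 356 CPM in untreated HFD and from 322 through 385 to 400.2 CPM in UCMSC-Exos, a rise of 0.28 ± 0.08 (log2; edgeR adjusted p = 0.0239). All 8 treated values exceeded the untreated median. With library totals only it was at 0.11 (edgeR adjusted p = 0.235). Slc16a1, the monocarboxylate transporter that carries ketone bodies out of the cell, fell by 0.33 ± 0.10 (log2; edgeR adjusted p = 0.0265); none of the 8 treated values exceeded the untreated median. Of genes that use ketone bodies, Aacs, which returns acetoacetate to lipid synthesis, fell by 0.51 ± 0.14 (log2; edgeR adjusted p = 0.0162). Oxct1, the ketone-using transferase that hepatocytes largely lack, stood at 193 CPM in untreated HFD 9 and at 27.25 CPM or less elsewhere; it was singled out after its values were seen.

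Among 18 genes of control, 4 rose and 1 fell (27.8% called, beside 20.2% of all genes). Acacb, the carboxylase that makes malonyl-CoA at mitochondria, ran from 94.97 through 134 to 242 CPM in untreated HFD and from 33.2 through 72.8 to 101 CPM in UCMSC-Exos. The treated values lay below the untreated median in 8 of 8 libraries, with a small overlap. It fell by 1.12 ± 0.23 (log2; edgeR adjusted p = 0.00383). Mlycd, which degrades malonyl-CoA, was at −0.06 ± 0.11 (edgeR adjusted p = 0.740). Rxra, the usual partner of PPAR-alpha, rose by 0.40 ± 0.10 and the mitochondrial deacetylase Sirt3 by 0.39 ± 0.09 (edgeR adjusted p = 0.0117 and 0.00605). With library totals only Rxra and Sirt3 were at 0.22 and 0.21 and passed; with surrogate variables they were at 0.15 and 0.20 and did not (edgeR adjusted p = 0.127 and 0.0528). Sirt3 was at 0.45 without UCMSC-Exos 9. Lpin1, a phosphatidate phosphatase and coactivator, rose by 0.94 ± 0.26 (log2; edgeR adjusted p = 0.0196), but its values split by replicate number within both groups. Untreated HFD 1 to 5 held 126 to 178 CPM of Lpin1 and untreated HFD 6 to 9 held 375 to 435 CPM. UCMSC-Exos 1, 2, 3 and 5 held 596 to 654 CPM and UCMSC-Exos 6 to 9 held 294 to 460 CPM, so the groups overlapped among numbers 6 to 9. Within untreated HFD, numbers 1 to 5 and 6 to 9 also did not overlap for Acacb (94.97 to 134 and 167 to 242 CPM). The same held for Acsl1 (359 to 494 and 520 to 819 CPM) and Crot (491 to 595 and 396 to 447 CPM). Within UCMSC-Exos the values of Acacb, Acsl1 and Crot did overlap between these numbers. The labels do not say what the numbers stand for. Lpin1 lost its call without a filter, with the replicate block and with surrogate variables (edgeR adjusted p = 0.0515, 0.0796 and 0.241). Creb3l3, a fasting-responsive transcription factor, rose by 0.27 ± 0.09 (edgeR adjusted p = 0.0456). It was at 0.32 without UCMSC-Exos 9 and did not pass without untreated HFD 9 (0.23, edgeR adjusted p = 0.0721). Creb3l3 kept its call in 4 of 17 fits that left out 1 library, and with library totals only it was at 0.10 (edgeR adjusted p = 0.287). The coactivators Ppargc1a and Ppargc1b were at −0.04 ± 0.21 and −0.13 ± 0.19 and did not pass.

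**Figure D4:**
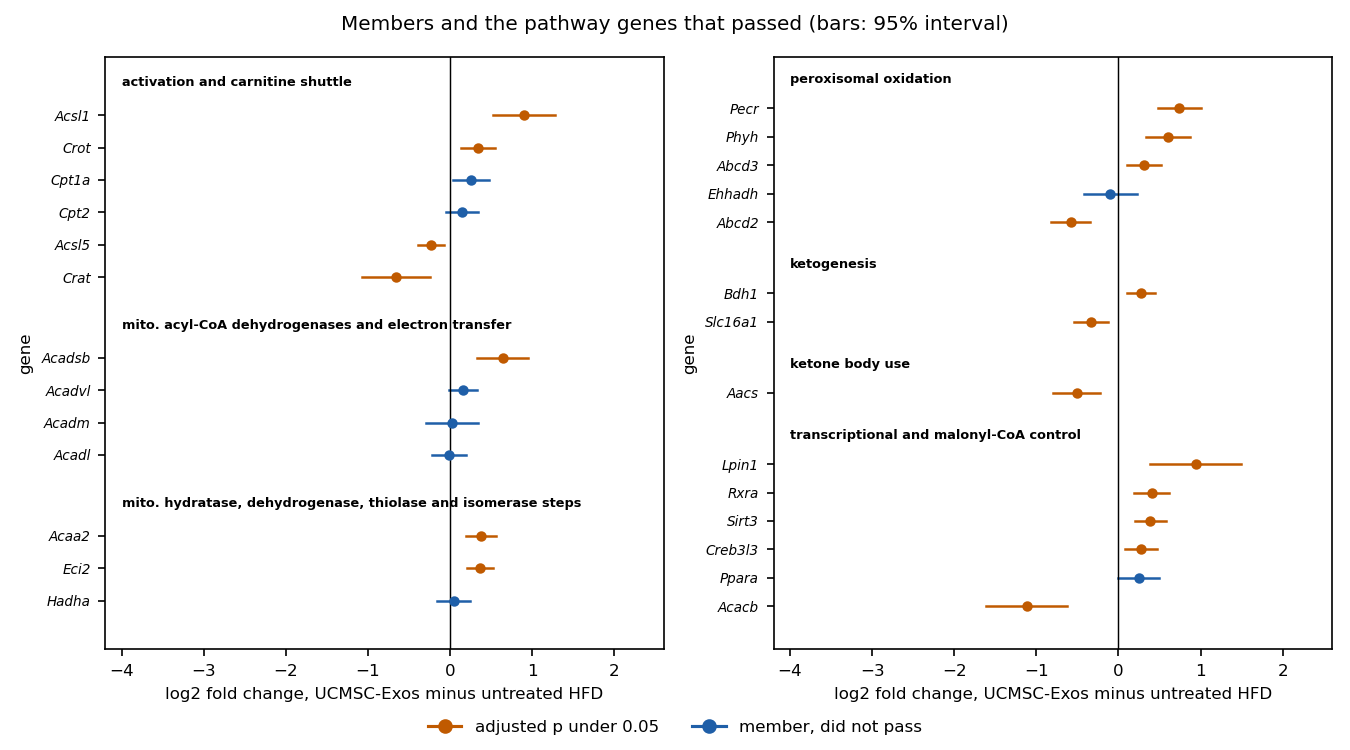
Log2 fold change, UCMSC-Exos minus untreated HFD, with its 95% interval from edgeR, for the 8 members and the other genes of oxidation, ketogenesis and control that passed, grouped by step; orange genes passed an adjusted p of 0.05 and blue genes are members, which did not. The 8 members lie between −0.10 and 0.25, and the extremes among called genes are Lpin1 (0.94) and Acacb (−1.12).

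Of 21 tested PPAR-alpha targets outside the oxidation steps 1 rose and 4 fell (4.76% and 19% of the list, beside 9.73% and 10.4% of all genes). Their median log2 fold change was −0.16. Angptl4, an inhibitor of lipoprotein lipase, rose by 0.52 ± 0.10 (edgeR adjusted p = 0.00138). Fgf21, a hormone of fasting, fell by 1.22 ± 0.40 (log2; edgeR adjusted p = 0.0413), and the thioesterase Acot2 by 0.90 ± 0.26 (0.0233). The droplet protein Plin2 and the fatty acid transporter Cd36 fell by 0.45 and 0.47 (edgeR adjusted p = 0.0213 and 0.0200). The part of PPAR-alpha or of other receptors in the changes of this list was not tested. Without untreated HFD 9 Cd36 was at −0.36, and without UCMSC-Exos 9 Acot2 was at −1.18; both passed there. Fgf21 kept its call in 5 of 17 fits that left out 1 library. The omega-hydroxylases Cyp4a10 and Cyp4a14 were at 0.23 ± 0.31 and −0.16 ± 0.43 and did not pass. Without UCMSC-Exos 3 the number called lower was 1, without UCMSC-Exos 2 it was 2, and without UCMSC-Exos 9 it was 8. In these fits 12.2%, 12.7% and 35.7% of all genes were called in either direction.

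Across the 17 libraries, with each group centred on its own mean, the gene most like the mean member profile was Etfdh (Pearson r = 0.893), which passes electrons from the acyl-CoA dehydrogenases to ubiquinone. Hadh (0.892), the short-chain hydroxyacyl-CoA dehydrogenase, and Gfm1 (0.875), a mitochondrial translation elongation factor, came next, followed by Zfp982, Snrpn and Mrc1 (0.849, 0.846 and 0.834). The profiles most like Ppara were those of Mia3, Dop1b and Abca1 (0.894, 0.882 and 0.879). Without centring, Abca1, Dop1b and Mgam were the most like Ppara (0.889, 0.882 and 0.881), with Mia3 at 0.841, and Mreg took the place of Zfp982 among the 6 most like the members. These values are descriptions over 12687 genes, and the libraries share tissue content and scaling.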

How the data were processed

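Per the file headers, the deposited counts are whole reads per gene from featureCounts 2.1.1 over exons of GENCODE vM25, with no strand option; both mates of a pair are counted. The submitters' processing notes name fastp 1.3.3, HISAT2 2.2.1, Subread 2.0.2 and mm10. Antisense and overlapping genes therefore share reads that strand would separate. Of 55401 IDs 55141 matched a symbol, and 1 per-sample column matched no sample and was not used. Nothing in the labels gives a batch, cage or date, and p-values measure the spread between these samples.

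The counts were fitted with edgeR 4.0.16 (R 4.3.3): filterByExpr (minimum count 10), TMM, robust quasi-likelihood F test, two-sided, Benjamini-Hochberg threshold 0.05. CPM uses the TMM-scaled library size; RPKM divides it by the exon length in the file; log2 CPM for profiles had a prior count of 2. SE and 95% intervals come from the F test. Members, gene lists and tests were chosen with earlier results of these data known. Named genes are the members, every listed gene that passed, the 1 of smallest p in a list with none, and the genes of most similar profile; Cpt1b, Hadhb, Oxct1, Mlycd, Ppargc1a, Ppargc1b, Cyp4a10 and Cyp4a14 were added after their values were seen. Alternatives used DESeq2 1.42.0, limma 3.58.1, sva 3.50.0 (3 surrogate variables), other scalings and filters, a replicate block, and leaving out libraries. The fitting scripts were tested on simulated data. No 2 libraries agreed within sampling noise: even UCMSC-Exos 2 and 3, the most alike, differed by 3.90 times the sampling chi-square. Some genes of the lists are counted but not reported here by name.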

Additional observations from a re-analysis of the deposited data

Results flagged for a closer look

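In 12 of 64 gene and group combinations (32 genes in each of 2 groups) 1 library lay far from the rest of its group; chance gives about 1 in 20. Untreated HFD 3, with the acinar transcripts, gave 1: Acadm at 752.3 CPM, against 313.8 to 452.3 CPM. Untreated HFD 9, with the muscle transcripts, gave 4, all high: Acadl at 328.4 CPM (others at most 216 CPM), Hadha at 563.3 CPM (at most 426.5 CPM), Crat at 201.1 CPM (at most 98.12 CPM) and Cd36 at 507 CPM (at most 329.4 CPM).

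UCMSC-Exos 9 gave the other 7. It was low for Cpt2 at 109.7 CPM (others at least 148.3 CPM), Crot at 477.6 CPM (606 CPM), Acadsb at 64.8 CPM (122.4 CPM), Acaa2 at 669 CPM (912.6 CPM), Creb3l3 at 255.6 CPM (330.4 CPM) and Sirt3 at 48.83 CPM (65.28 CPM). It was high for Acot2 at 20.67 CPM, against at most 11.01 CPM. For Crot, Acaa2, Creb3l3, Sirt3 and Acot2 its value lay within the untreated range, and for Cpt2 and Acadsb below it. The part of the acinar, muscle or other content of these 3 libraries in these values was not tested.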

How the results depend on the processing

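Small shifts decided the members' calls. With limma voom and quality weights, log2 fold changes were 0.28 (Ppara), 0.26 (Cpt1a), 0.23 (Cpt2), 0.25 (Acadm) and 0.27 (Acadvl). These 5 members were called higher, beside 47.5% of all genes called in either direction, and Acadl turned to 0.060. DESeq2 called 1 member, Cpt1a at 0.26, beside 25% of all genes. Surrogate variables gave 0.10 for Ppara, 0.080 for Cpt1a, −0.058 for Cpt2 and 0.022 for Acadl. With library totals only, Ppara was at 0.075, Cpt1a 0.079, Cpt2 −0.030, Acadm −0.15, Acadvl −0.013 and Hadha −0.13, none called. Without untreated HFD 3 and 9, Acadl was at 0.078 and 1 member passed, Acadvl at 0.22, beside 20.6% of all genes. Without these and UCMSC-Exos 9, Acadl was at 0.090 and 4 members passed, beside 41.9% of all genes: Cpt1a 0.20, Cpt2 0.21, Acadm 0.26 and Acadvl 0.25. Leaving out 1 library gave 0.20 to 0.33 for Ppara, 0.20 to 0.30 for Cpt1a, 0.12 to 0.21 for Cpt2 and −0.025 to 0.17 for Acadm. It gave −0.050 to 0.079 for Acadl, 0.13 to 0.19 for Acadvl, 0.01 to 0.12 for Hadha and −0.20 to −0.03 for Ehhadh. In these fits 0 to 2 members were higher and 0 lower, beside 12.2% to 35.7% of all genes called in either direction. The fit with 2 was that without UCMSC-Exos 9, where 35.7% of all genes passed.

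The pathway list had 40 genes higher with voom, 6 with surrogate variables, 34 without the 3 libraries and 8 with library totals only, where 11 were lower; leaving out 1 library gave 10 to 24 higher and 3 to 9 lower. Other PPAR-alpha targets called higher were 2 with DESeq2, voom and both joint omissions, and 3 with the replicate block; those lower were 2 without a filter or without untreated HFD 3 and 9, 7 with voom, 1 with surrogate variables and 8 without the 3 libraries. Leaving out 1 library gave 1 to 2 higher and 1 to 8 lower. All genes called numbered 7711 with voom (47.5%), 1549 with surrogate variables (9.54%), 6716 without the 3 libraries (41.9%) and 3698 with library totals only (22.8%). They numbered 2005 to 5823 with 1 library left out. These were 2086 without UCMSC-Exos 2 (12.7%), 2005 without UCMSC-Exos 3 (12.2%) and 5823 without UCMSC-Exos 9 (35.7%). The share of all genes called was 25% with DESeq2, 18.8% with the replicate block, 7.28% without a filter and 20.6% without untreated HFD 3 and 9. The likeness of Zfp982 was 0.784 without centring. The cause of these differences was not tested.

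Calls of Crot, Acadsb, Abcd3, Bdh1, Slc16a1, Rxra, Lpin1, Sirt3, Acot2, Fgf21 and Plin2 were lost with surrogate variables. Without a filter on low counts those of Acsl5, Crat, Abcd3, Lpin1, Creb3l3, Acot2 and Fgf21 were lost, with the replicate block those of Abcd3 and Lpin1, and without untreated HFD 3 and 9 those of Slc16a1, Acot2 and Fgf21. Same-numbered libraries of the 2 groups had correlations of −0.17 to 0.24, and 1 of 8 correlated best with its own number. This gave no sign that the numbers pair the libraries, but so few pairs cannot exclude it. With the replicate block Acadl was at 0.0012 and 3029 genes were called. Every member had at least 3151 reads in every library.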
